A study of Sus scrofa with 9 samples.

Results

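The 6 genes described here, PENK, OLR1, RAB3B, DUSP13, MLLT11 and AHI1, are 6 of the 30942 genes in a count table of pig heart. They were chosen by their counts in the doxorubicin and vehicle libraries, which were higher with doxorubicin, and for belonging to no one stress pathway. The libraries came from hearts of wild-type (WT) miniature pigs (Sus scrofa) in 3 groups of 3: doxorubicin plus formononetin, doxorubicin alone, and vehicle. Doxorubicin is an anthracycline chemotherapy drug that is toxic to heart muscle, and formononetin is a plant isoflavone. The question put to these genes was which of them returned to vehicle levels when formononetin was given with doxorubicin. The labels used here give no dose, duration, age, sex or region of the heart, and nothing in them ties each library to an animal of its own. The p-values thus speak of the spread among these libraries, part or all of which may be technical. Total counts lay between 16291952 and 17549359 per library. One library stood apart: the second of doxorubicin plus formononetin had at least 1 count in 14766 genes, against 18107 to 19304 in the other 8. Of 18 heart muscle markers searched by symbol, 17 were matched. Their summed level in CPM (counts scaled to 1e+06 per library) was 70000 to 74870 with doxorubicin plus formononetin, 53510 to 62140 with doxorubicin and 78010 to 87000 with vehicle. Its part in the values of the 6 genes was not tested.

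The 6 genes do different work in the cell. PENK encodes proenkephalin, a precursor that is cut into the opioid peptides Met- and Leu-enkephalin, and in rats heart muscle is a known site of its transcript. OLR1 encodes the lectin-like receptor for oxidised low density lipoprotein, a surface protein of endothelial cells, macrophages and smooth muscle. RAB3B is a small GTPase of the RAB3 family, which tethers secretory vesicles before their release. DUSP13 is a dual specificity phosphatase known in humans from skeletal muscle and testis. MLLT11, also called AF1q, was found as a fusion partner of KMT2A in human leukaemia and is a cofactor of the transcription factor TCF7. AHI1 encodes jouberin, a protein of the ciliary transition zone, the gate at the base of the primary cilium, and its loss causes Joubert syndrome in humans.

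With formononetin added to doxorubicin, PENK, OLR1, RAB3B, DUSP13 and MLLT11 were lower than with doxorubicin alone, and AHI1 was not called lower. Thus 5 of the 6 genes fell by the edgeR quasi-likelihood test at an adjusted p under 0.05, where 28.1% of the 14846 genes tested were called, 13.5% lower and 14.7% higher. For these 5 every library with formononetin lay below every doxorubicin library, which held for 22.2% of all genes tested. All 6 genes were among those tested. Because the genes were chosen for high values in the same doxorubicin libraries, part of any drop relative to those libraries is set by the choice. Against vehicle, AHI1 and RAB3B were called higher with doxorubicin plus formononetin, where 1.76% of genes tested were called, 0.956% higher and 0.808% lower. The other 4 did not pass that test, which does not show that they equalled vehicle, and their intervals are given below. The vehicle libraries are also those on which the genes were chosen.

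**Figure D1:**
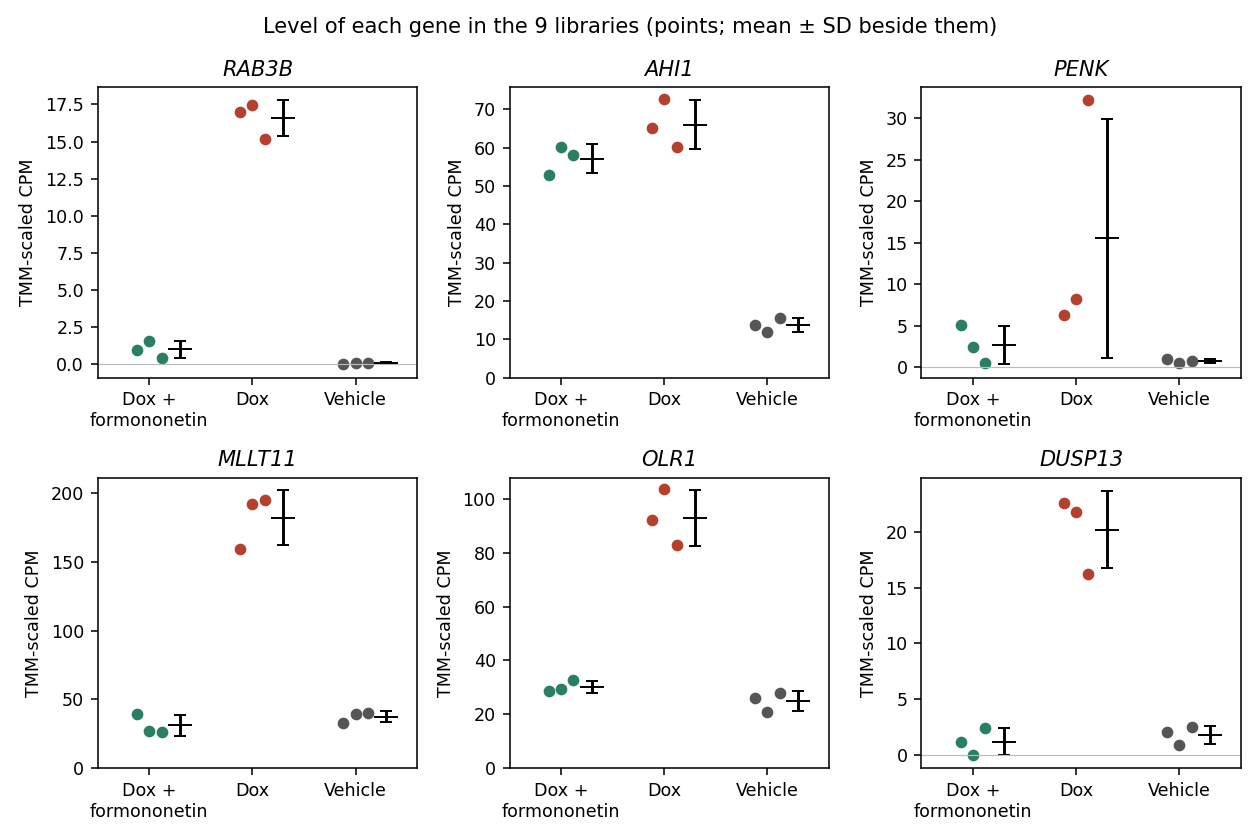
Level of each gene in every library, as CPM scaled by the trimmed mean of M-values (TMM), with the mean ± SD of 3 libraries beside the points, and groups in the order doxorubicin plus formononetin, doxorubicin, vehicle. AHI1 stayed between 53.0 and 60.3 CPM with doxorubicin plus formononetin, while each library of the other 5 genes in that group lay below the doxorubicin points, with RAB3B still above every vehicle point and PENK spread from 0.458 to 5.04 CPM.

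The height of the doxorubicin level over vehicle chose the genes and is given as a description with no test. By fitted fold change among the 14846 genes, RAB3B ranked 4, PENK 23, DUSP13 56, MLLT11 200, AHI1 204 and OLR1 317. Every doxorubicin library lay above every vehicle library for all 6, which held for 27.6% of all genes tested. Of all genes tested, 33.3% were called with doxorubicin against vehicle, 16.3% higher and 17.0% lower. Per kilobase of the deposited gene length, MLLT11 was the most abundant in doxorubicin hearts with 121 ± 13.3 RPKM (SD, n = 3), followed by OLR1 with 59.8 ± 6.71 RPKM. AHI1 with 12.6 ± 1.22 RPKM and PENK with 10.9 ± 10.1 RPKM overlapped. RAB3B with 3.43 ± 0.25 RPKM and DUSP13 with 1.96 ± 0.34 RPKM were the lowest on this scale, and their libraries did not overlap. The deposited length of DUSP13 is 10318 bases, which lowers its value per kilobase; without division by length it averaged 20.2 ± 3.46 CPM in doxorubicin hearts. With doxorubicin plus formononetin AHI1 stood at 10.9 ± 0.72 RPKM, behind MLLT11 at 20.7 ± 4.98 RPKM and OLR1 at 19.5 ± 1.45 RPKM, whose ranges overlapped. PENK at 1.85 ± 1.61, RAB3B at 0.210 ± 0.119 and DUSP13 at 0.114 ± 0.118 RPKM made up the rest in that group.

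PENK varied most of the 6 among the doxorubicin libraries. It had 5.04, 2.41 and 0.458 CPM with doxorubicin plus formononetin, 6.33, 8.17 and 32.1 CPM with doxorubicin, and 0.961, 0.480 and 0.724 CPM with vehicle. The third doxorubicin library carried 523 of the 776 counts of its group, and the 3 libraries with formononetin spread from below the lowest vehicle library to just below the lowest doxorubicin library. PENK fell by 2.55 ± 0.72 (SE) on the log2 scale with doxorubicin plus formononetin against doxorubicin (edgeR adjusted p = 0.0222). That call rested on the third doxorubicin library, without which the log2 fold change was -1.45 (edgeR adjusted p = 0.153), and it was also lost by limma-voom (adjusted p = 0.0639). Against vehicle the log2 fold change was 1.87 with a 95% interval from 0.02 to 3.71 (edgeR adjusted p = 0.292). It was 1.002 without doxorubicin plus formononetin replicate 1 and 2.36 without replicate 3 of that group, and 2 of 3 libraries with formononetin lay above every vehicle library.

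Genes that make, cut and receive opioid peptides gave a mixed picture around PENK. Of 16 tested genes of the opioid list, 5 fell and 3 rose with doxorubicin plus formononetin against doxorubicin, and their median log2 fold change was 0.02, beside -0.01 over all genes tested. With doxorubicin against vehicle 6 rose and 3 fell, with a median of -0.01. Among all genes tested, 14.7% rose and 13.5% fell with formononetin added, and 16.3% rose and 17.0% fell with doxorubicin against vehicle. MME, which encodes the enkephalin-degrading protease neprilysin, averaged 28.1 ± 6.12 CPM with doxorubicin plus formononetin, 8.28 ± 0.72 CPM with doxorubicin and 31.6 ± 8.39 CPM with vehicle (SD, n = 3 each). ACE, a second peptidase that can cleave enkephalins, averaged 83.3 ± 2.08, 22.7 ± 5.24 and 68.0 ± 13.7 CPM in the same order of groups. Both therefore fell with doxorubicin, by 1.93 ± 0.22 for MME and by 1.58 ± 0.18 for ACE on the log2 scale (edgeR adjusted p = 0.000144 for each), and rose with formononetin added, by 1.76 ± 0.22 and 1.87 ± 0.18. PAM, which amidates peptide hormones, went the other way, rising by 0.73 ± 0.14 with doxorubicin and at -0.87 ± 0.14 with formononetin added. So did the peptidases DPP3 and NPEPPS, which rose by 0.78 ± 0.26 and 0.29 ± 0.10 with doxorubicin (edgeR adjusted p = 0.0379 and 0.0469). With formononetin added they were at -0.70 ± 0.26 and -0.32 ± 0.10 (edgeR adjusted p = 0.065 and 0.0363). The peptidase gene ANPEP rose with formononetin added, as MME and ACE did, by 1.43 ± 0.46 (edgeR adjusted p = 0.0381). It did not pass with doxorubicin against vehicle (-0.39 ± 0.47, edgeR adjusted p = 0.552). The precursor POMC also fell with doxorubicin, to an average of 0.932 ± 0.116 CPM in doxorubicin hearts, against 2.59 ± 0.611 CPM in vehicle hearts. The receptor gene OPRM1 had 0 counts in every library, and OPRD1, OPRK1, OPRL1 and the neuroendocrine convertases PCSK1 and PCSK2 were too low to test.

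OLR1 varied little within each group and came close to vehicle levels. It had 28.7, 29.3 and 32.9 CPM with doxorubicin plus formononetin, 92.2, 104 and 82.8 CPM with doxorubicin, and 26.1, 21.0 and 27.8 CPM with vehicle. The libraries with formononetin lay far below every doxorubicin library and just above every vehicle library. OLR1 fell by 1.62 ± 0.13 on the log2 scale with doxorubicin plus formononetin against doxorubicin (edgeR adjusted p = 3.91e-05). Against vehicle the log2 fold change was 0.28, with a 95% interval from -0.01 to 0.57 (edgeR adjusted p = 0.317). A higher group without overlap was found in that comparison for 10.6% of all genes tested.

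Scavenger receptors and lectins near OLR1 moved apart. Of 29 tested genes of that list, 6 rose and 5 fell with doxorubicin plus formononetin against doxorubicin. With doxorubicin against vehicle 6 of the 29 rose and 8 fell. Among all genes tested, 14.7% rose and 13.5% fell with formononetin added, and 16.3% rose and 17.0% fell with doxorubicin against vehicle. MSR1, the class A scavenger receptor of macrophages, averaged 2.85 ± 1.11 CPM with doxorubicin plus formononetin, 11.3 ± 2.80 CPM with doxorubicin and 3.60 ± 0.379 CPM with vehicle. SCARA5, a ferritin receptor of stromal cells, ran the opposite way, with 39.4 ± 11.5, 2.32 ± 3.29 and 42.8 ± 16.7 CPM in the same order. COLEC12, a scavenger collectin, fell by 0.77 ± 0.18 on the log2 scale with doxorubicin and rose by 0.90 ± 0.18 with formononetin added. The fatty acid and lipoprotein receptor CD36, named after its values were seen, averaged 1000 ± 207 CPM with doxorubicin plus formononetin, 1169 ± 61.6 CPM with doxorubicin and 1076 ± 111 CPM with vehicle.

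About as many macrophage markers passed the test as did not, but those that passed moved almost all in the same direction. Of all genes tested, 13.5% fell with formononetin added to doxorubicin and 16.3% rose with doxorubicin against vehicle. Of 27 macrophage markers all had counts and 26 were tested, of which 12 fell, SPP1 rose and 13 did not pass with doxorubicin plus formononetin against doxorubicin. With doxorubicin against vehicle 12 rose, FOLR2 fell and 13 did not pass, CD68, CD14, CSF1R and MRC1 among them. The median log2 fold change of the tested markers was -0.55 with formononetin added and 0.92 with doxorubicin against vehicle. Over all genes tested these medians were -0.01 and -0.00193. Summed over the 27 markers, the level was 467.9 to 537.7 CPM with doxorubicin plus formononetin, 680.1 to 759 CPM with doxorubicin and 358.1 to 527.4 CPM with vehicle. LAPTM5, a lysosomal protein of blood cells, averaged 53.1 ± 2.31, 103 ± 10.2 and 49.4 ± 5.03 CPM in the same order. Of 22 tested markers of endothelium, the other main cell type known for OLR1, PLVAP and ESM1 rose, 9 fell and 11 did not pass with doxorubicin against vehicle. Their sum was 2409 to 2719 CPM with doxorubicin plus formononetin, 1666 to 1959 CPM with doxorubicin and 2102 to 2918 CPM in vehicle hearts, and none of the 22 was at 0 in all libraries. The part of either cell type in the OLR1 values was not tested, and in whole tissue fewer cells of a type and less RNA per cell cannot be told apart.

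RAB3B was close to absent in vehicle hearts and was not fully back there with formononetin. It had 16, 28 and 7 counts with doxorubicin plus formononetin (0.972, 1.60 and 0.458 CPM), 309, 295 and 247 counts with doxorubicin (17.0, 17.5 and 15.2 CPM), and 0, 2 and 2 counts with vehicle. The 3 groups did not overlap at any point. RAB3B fell by 4.01 ± 0.39 on the log2 scale with doxorubicin plus formononetin against doxorubicin (edgeR adjusted p = 9.84e-05). Against vehicle the summed counts were 51 with doxorubicin plus formononetin and 4 with vehicle, a ratio of 13.3 after scaling for depth, with a 95% exact interval from 4.88 to 50.6 that covers counting error only. That difference was called (edgeR adjusted p = 0.0187), and the call was lost without doxorubicin plus formononetin replicate 1 or any 1 vehicle library (highest adjusted p = 0.0805) and by limma-voom (adjusted p = 0.173). At these counts the fitted fold change depends on the small constant added before taking logs, so the ratio of counts is the value to read.

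Other genes of the vesicle release machinery went both ways, and few passed with formononetin added. Of 31 tested genes of the RAB3 and exocytosis list, 3 rose (RAB3A, RAB3IL1 and VAMP2) and SNAP23 fell with doxorubicin plus formononetin against doxorubicin. With doxorubicin against vehicle 6 rose and 3 fell, and the median log2 fold change was 0.12, beside -0.00193 over all genes tested. Among all genes tested, 14.7% rose and 13.5% fell with formononetin added, and 16.3% rose and 17.0% fell with doxorubicin against vehicle. The neuronal family member RAB3A averaged 23.4 ± 2.06 CPM with doxorubicin plus formononetin, 14.2 ± 2.81 CPM with doxorubicin and 18.5 ± 1.77 CPM in vehicle hearts, and it did not pass with doxorubicin (edgeR adjusted p = 0.0911). RAB3D averaged 10.7 ± 2.40, 11.6 ± 0.69 and 12.8 ± 0.76 CPM in the same order, and RAB3C was too low to test. The membrane fusion protein SNAP23 rose by 0.71 ± 0.14 on the log2 scale with doxorubicin and was at -0.60 ± 0.14 with formononetin added. Its vesicle partner VAMP2 fell by 0.76 ± 0.11 with doxorubicin and rose by 0.66 ± 0.11 with formononetin added. SYTL2, a synaptotagmin-like vesicle tether, was the gene of this list called higher with doxorubicin plus formononetin against vehicle (0.87 ± 0.19, edgeR adjusted p = 0.048), a call that limma-voom did not make.

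Few of the nerve or neuroendocrine markers searched beside RAB3B, PENK and MLLT11 had enough counts to test. Of 23 matched markers of neurons and neuroendocrine cells, 20 had counts and 6 were tested. TH and DBH, the enzymes of noradrenaline synthesis, and SCG2 were at 0 in every library. None of the 6 passed with doxorubicin against vehicle by edgeR or limma-voom, 1 did by DESeq2 and 1 had an unadjusted edgeR p under 0.05. UCHL1 fell with formononetin added (-1.17 ± 0.40, edgeR adjusted p = 0.0494). The median log2 fold change of the 6 was 1.23 with doxorubicin against vehicle and -0.82 with formononetin added, the directions in which RAB3B, PENK and MLLT11 moved. Over all genes tested these medians were -0.00193 and -0.01. Summed over the 23 markers, the level was 8.45 to 13.4 CPM with doxorubicin plus formononetin, 12.96 to 19.99 CPM with doxorubicin and 7.87 to 12.7 CPM with vehicle. The part of these markers' cells in the values of RAB3B, PENK and MLLT11 was not tested.

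DUSP13 was back within or below the vehicle range with formononetin. It had 1.09, 0 and 2.42 CPM with doxorubicin plus formononetin, 22.6, 21.8 and 16.2 CPM with doxorubicin, and 2.04, 0.900 and 2.45 CPM with vehicle. The 0 came from the library with few detected genes, and a count of 0 there allows up to 0.172 CPM. DUSP13 fell by 4.13 ± 0.68 on the log2 scale with doxorubicin plus formononetin against doxorubicin (edgeR adjusted p = 0.00158). Against vehicle the log2 fold change was -0.65 with a 95% interval from -2.23 to 0.92 (edgeR adjusted p = 0.689). Without that library the values were -3.53 against doxorubicin and -0.05 against vehicle.

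Other dual specificity phosphatases went both ways, and few passed with formononetin added. Of 24 tested, DUSP22 rose and DUSP5, DUSP7 and DUSP19 fell with doxorubicin plus formononetin against doxorubicin, with a median log2 fold change of -0.26. With doxorubicin against vehicle DUSP5, DUSP6 and DUSP19 rose and 4 fell. Among all genes tested, 14.7% rose and 13.5% fell with formononetin added, and 16.3% rose and 17.0% fell with doxorubicin against vehicle. DUSP5, a nuclear phosphatase that inactivates ERK kinases, averaged 0.684 ± 0.202 CPM with doxorubicin plus formononetin, 3.41 ± 0.673 CPM with doxorubicin and 0.742 ± 0.151 CPM with vehicle. DUSP19 averaged 6.70 ± 1.20, 12.1 ± 1.63 and 6.80 ± 0.513 CPM in the same order. DUSP26 stayed low and averaged 65.9 ± 1.93 CPM with doxorubicin plus formononetin, 77.6 ± 6.15 CPM with doxorubicin and 131 ± 1.39 CPM in vehicle hearts. It and DUSP23 were the 2 phosphatases called lower than vehicle with formononetin added.

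Skeletal muscle transcripts, the human site of DUSP13, were scarce except for a few. Of 22 matched markers of fast skeletal and developing muscle, 16 had counts and 5 were tested, and MYH4, PVALB, MYOD1, MYOG, MYF5 and PAX7 were at 0 in every library. With doxorubicin against vehicle 2 of the 5 rose and 1 fell (median log2 fold change 0.67). With formononetin added 1 rose and 2 fell (median -0.58). Among all genes tested, 16.3% rose and 17.0% fell with doxorubicin against vehicle, and 14.7% rose and 13.5% fell with formononetin added. The fast light chain MYL1 averaged 2.94 ± 3.93 CPM with doxorubicin plus formononetin, 58.8 ± 20.5 CPM with doxorubicin and 3.92 ± 2.85 CPM with vehicle. The calcium-binding protein CASQ1 averaged 14.02 ± 1.55, 31.1 ± 3.83 and 14.03 ± 1.05 CPM in the same order. MYMK, a membrane protein of myoblast fusion, ran the other way with 5.61 ± 2.35, 0.893 ± 0.670 and 2.76 ± 1.29 CPM. The summed level of the list was 138.7 to 168.3 CPM with doxorubicin plus formononetin, 232.4 to 320.8 CPM with doxorubicin and 136.7 to 199.9 CPM in vehicle hearts, and its part in the DUSP13 values was not tested.

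MLLT11 reached the highest level of the 6 with doxorubicin and was within or below the vehicle range with formononetin. It had 39.7, 27.2 and 26.5 CPM with doxorubicin plus formononetin, 159, 192 and 195 CPM with doxorubicin, and 32.7, 39.3 and 39.8 CPM with vehicle. With formononetin 2 libraries lay below every vehicle library and 1 within their range. MLLT11 fell by 2.55 ± 0.17 on the log2 scale with doxorubicin plus formononetin against doxorubicin (edgeR adjusted p = 1.69e-05), which ranked 5 of 14846 genes by p. Part of this rank is set by the choice of the gene, made on the same doxorubicin libraries. Against vehicle the log2 fold change was -0.26 with a 95% interval from -0.62 to 0.10 (edgeR adjusted p = 0.451).

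Both gene groups tied to MLLT11 held genes that moved with it and against it, and on the KMT2A list more moved against it. Of 25 tested genes on a list of KMT2A, its fusion partners and related genes, 9 rose with doxorubicin plus formononetin against doxorubicin. MLLT3 and ELL2 fell in that comparison, where 14.7% of all genes tested rose and 13.5% fell. With doxorubicin against vehicle 3 of the 25 rose and 6 fell, with a median log2 fold change of -0.25. Of all genes tested, 16.3% rose and 17.0% fell there. FOXO4, a forkhead factor, averaged 63.9 ± 9.43 CPM with doxorubicin plus formononetin, 30.9 ± 3.23 CPM with doxorubicin and 69.8 ± 5.36 CPM in vehicle hearts, and the junction protein gene AFDN averaged 130 ± 8.89, 77.2 ± 2.23 and 162 ± 14.8 CPM. Of 34 tested TCF/LEF factors and Wnt pathway genes, 6 rose and 4 fell with formononetin added, and 7 rose and 6 fell with doxorubicin against vehicle. The secreted Wnt antagonist FRZB averaged 48.3 ± 34.1 CPM with doxorubicin plus formononetin, 429 ± 41.0 CPM with doxorubicin and 54.6 ± 32.7 CPM with vehicle. CD44, a hyaluronan receptor, averaged 18.6 ± 0.58, 39.0 ± 3.49 and 16.1 ± 3.09 CPM. The repressor TCF7L1 ran the opposite way, at 8.63 ± 1.40, 3.97 ± 0.44 and 7.93 ± 0.31 CPM.

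AHI1 kept most of its doxorubicin level when formononetin was added. It had 53.0, 60.3 and 58.2 CPM with doxorubicin plus formononetin, 65.2, 72.7 and 60.1 CPM with doxorubicin, and 13.7, 11.8 and 15.6 CPM with vehicle. One library with formononetin reached the lowest doxorubicin library, and all 3 lay far above the highest vehicle library. Against doxorubicin the log2 fold change was -0.21 with a 95% interval from -0.47 to 0.06 (edgeR adjusted p = 0.223). Against vehicle AHI1 was higher by 2.06 ± 0.13 on the log2 scale (edgeR adjusted p = 1.19e-05), ranking 5 of 14846 genes by p. Leaving out any 1 library kept that value between 1.96 and 2.16, with a highest adjusted p of 0.000201. Part of the rank is set by the choice of AHI1, made on the same vehicle libraries.

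Other genes of the ciliary gate went both ways. Of 38 tested genes of the transition zone and Joubert list, none was called with doxorubicin plus formononetin against vehicle by edgeR, where 1.76% of all genes were. By limma-voom none and by DESeq2 2 of them were called, and 5 had an unadjusted edgeR p under 0.05. With doxorubicin plus formononetin against doxorubicin NPHP4, CC2D2A, B9D1 and SUFU rose and TCTN2, TMEM17 and TOGARAM1 fell. With doxorubicin against vehicle TCTN1, TMEM17 and TOGARAM1 rose and 5 genes fell. Among all genes tested, 14.7% rose and 13.5% fell with formononetin added, and 16.3% rose and 17.0% fell with doxorubicin against vehicle. IFT172, a subunit of the intraflagellar transport train, averaged 28.3 ± 0.988 CPM with doxorubicin plus formononetin, 22.6 ± 2.30 CPM with doxorubicin and 38.9 ± 2.96 CPM with vehicle. The inositol phosphatase gene INPP5E, also a Joubert gene, averaged 9.32 ± 2.97, 7.48 ± 0.418 and 14.3 ± 2.23 CPM, and TOGARAM1 averaged 20.8 ± 1.41, 28.2 ± 0.702 and 20.5 ± 0.917 CPM in the same order.

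**Figure D2:**
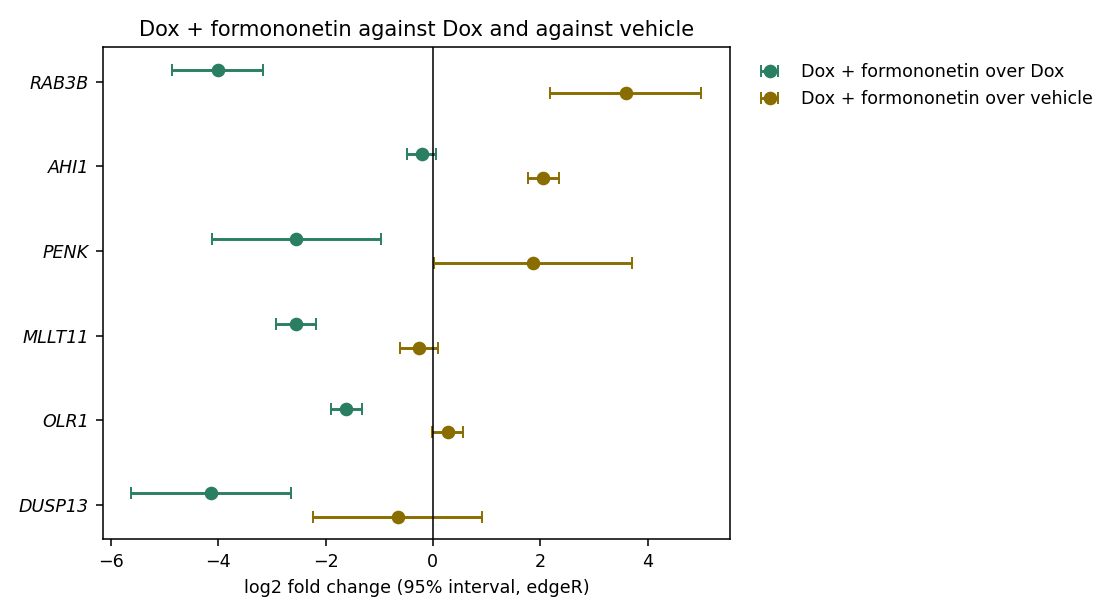
Log2 fold change of each gene with its 95% interval from the edgeR fit for doxorubicin plus formononetin over doxorubicin (green) and over vehicle (ochre), where 0 means equal levels. AHI1 lay near 0 against doxorubicin and at 2.06 against vehicle. Against vehicle, MLLT11 at -0.26 had a narrow interval that held 0. OLR1 at 0.28 had a narrow one that lay almost wholly above 0, from -0.01 to 0.57. DUSP13 at -0.65 had a wide one, and the RAB3B value against vehicle is a fitted one that rests on 4 vehicle counts.

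The distance left to vehicle was set out on the linear CPM scale as the share of the gap between the doxorubicin and vehicle means that remained with formononetin. It was 83.0 ± 7.15% for AHI1 (SD, n = 3 libraries), 12.9 ± 15.5% for PENK, 7.86 ± 3.32% for OLR1, 5.67 ± 3.48% for RAB3B, -3.40 ± 6.60% for DUSP13 and -4.26 ± 5.17% for MLLT11. For AHI1 the 3 libraries lay between 75.1% and 89.0%, and no library of the other 5 genes was above 29.2%. The 2 scales read differently for RAB3B: 5.67% of the gap was left, while the level with formononetin was 13.3 times a vehicle level close to 0. These shares are descriptions, since both ends of the gap chose the genes.

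**Figure D3:**
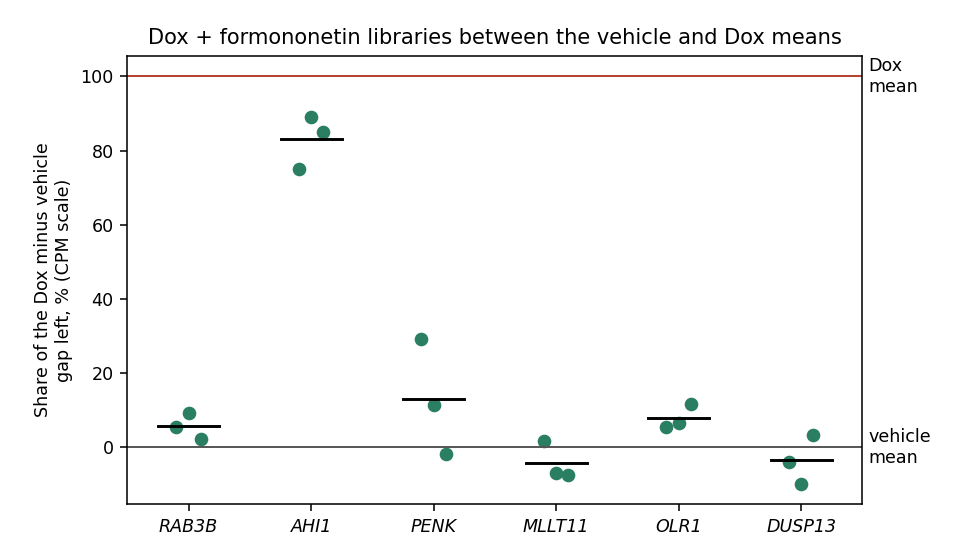
Share of the doxorubicin minus vehicle gap in mean CPM that remained in each doxorubicin plus formononetin library (points) and its mean (bars), with 0% at the vehicle mean and 100% at the doxorubicin mean. The mean was 83.0% for AHI1 and between -4.26% and 12.9% for the other 5 genes.

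The genes lie apart in the genome (assembly Sscrofa11.1), except that PENK and MLLT11 share chromosome 4. OLR1 lies on chromosome 5 from 61799356 to 61809691 and was flanked by genes that also changed. TMEM52B, 10731 bases before it, rose by 0.56 ± 0.13 on the log2 scale with doxorubicin (edgeR adjusted p = 0.00738). CLEC7A, the beta-glucan receptor dectin-1, lies 23219 bases after it and averaged 0.527 ± 0.585 CPM with doxorubicin plus formononetin, 2.48 ± 0.621 CPM with doxorubicin and 0.310 ± 0.075 CPM with vehicle, a rise of 2.97 ± 0.73 with doxorubicin (edgeR adjusted p = 0.00979). DUSP13 lies on chromosome 14 from 77660124 to 77677713 on the minus strand, and SAMD8, which begins 1574 bases away on the plus strand, rose by 0.71 ± 0.11 with doxorubicin (edgeR adjusted p = 0.000676) and was at -0.35 ± 0.11 with formononetin added (edgeR adjusted p = 0.029).

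MLLT11 lies on chromosome 4 from 98165990 to 98171674 on the minus strand, back to back with CDC42SE1, which begins 263 bases away on the plus strand. CDC42SE1 averaged 28.5 ± 4.01 CPM with doxorubicin plus formononetin, 36.4 ± 1.48 CPM with doxorubicin and 31.5 ± 3.14 CPM in vehicle hearts. It passed neither with formononetin added to doxorubicin nor with doxorubicin against vehicle (edgeR adjusted p = 0.0576 and 0.232). AHI1 lies on chromosome 1 from 28566279 to 28760471, between PDE7B and MYB. The phosphodiesterase gene PDE7B was also called higher with doxorubicin plus formononetin against vehicle (0.78 ± 0.16, edgeR adjusted p = 0.0327) and with doxorubicin against vehicle (0.54 ± 0.16, edgeR adjusted p = 0.0212). The transcription factor gene MYB averaged at most 1.21 CPM in any group. An uncharacterised locus that overlaps AHI1, LOC110260025, had 9 counts in all libraries together. RAB3B lies on chromosome 6 from 160194488 to 160255635, and its neighbours TXNDC12 and NRDC did not pass in any comparison. PENK lies on chromosome 4 from 75525497 to 75530403. Of its neighbours, LOC100514834 did not pass in any comparison, and SDR16C5, with 5 counts in all libraries together, was not tested.

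**Figure D4:**
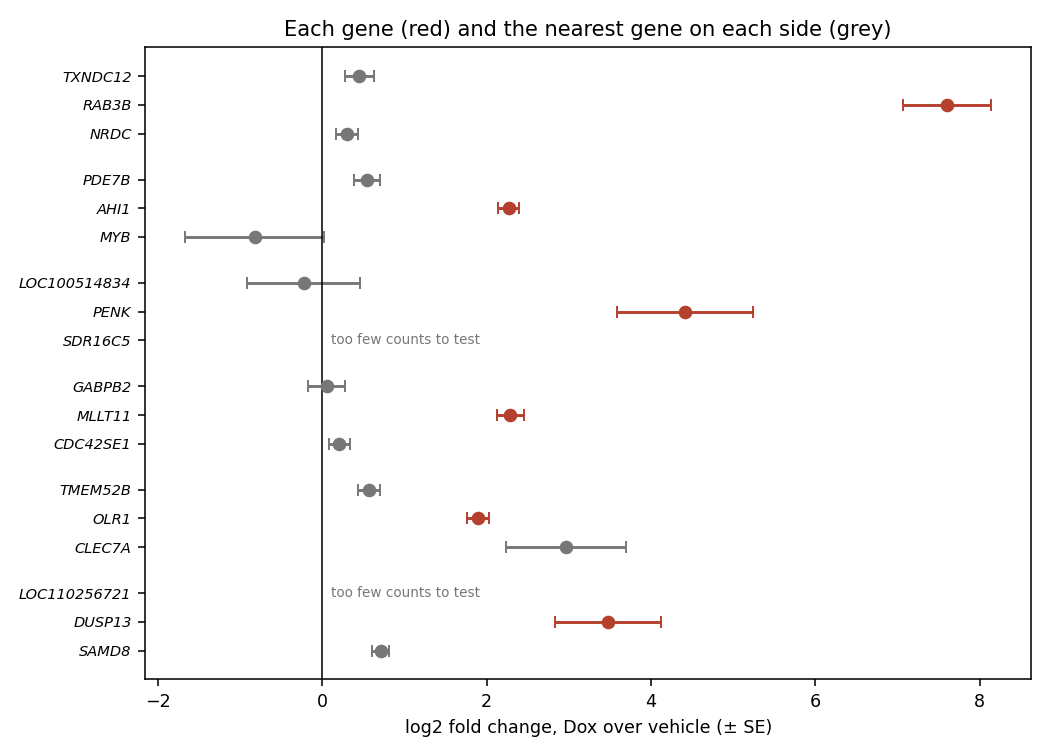
Log2 fold change with doxorubicin over vehicle (± SE) of each of the 6 genes, in red, and of the nearest gene with a count on each side of it in chromosome order, in grey. CLEC7A beside OLR1 had the largest value of any neighbour shown (2.97), and the other tested neighbours lay between -0.82 and 0.71.

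Other genes shared these patterns across libraries. Likeness was the Pearson correlation of log2 CPM over the 9 libraries, among 11062 genes with at least 5 CPM in their highest group, and it largely follows the group differences that chose the genes. It takes no account of the size of a change. For AHI1 the closest were PIK3AP1 (r = 0.99), an adaptor of PI3-kinase signalling, the uncharacterised LOC110257412 (0.98) and PPARGC1A (0.98), a coactivator of mitochondrial genes. PPARGC1A averaged 113 CPM with doxorubicin plus formononetin, 125 CPM with doxorubicin and 71.8 CPM with vehicle. For OLR1 they were EIF2AK2 (0.99), which encodes the double-stranded RNA sensor PKR, SMURF2 and TMX1, and EIF2AK2 averaged 43.6, 136 and 36.1 CPM in the same order. For RAB3B they were the double-stranded RNA receptor TLR3 (0.99), AP3M1 and LOC100525935, and TLR3 averaged 5.94, 14.3 and 3.74 CPM.

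For MLLT11 the closest were MAN2A1, CTGF and GJA1 (each 0.99). CTGF, a matricellular growth factor, averaged 58.2 CPM with doxorubicin plus formononetin, 263 CPM with doxorubicin and 69.0 CPM in vehicle hearts, and GJA1, the main ventricular gap junction protein, averaged 419, 740 and 430 CPM. For DUSP13 they were PGM3 (0.996), GTF2A1 (0.99) and PAPOLA (0.99), and for PENK they were CRISPLD1 (0.98), CCT4 (0.97) and TARS (0.97). GTF2A1, a general transcription factor subunit, averaged 16.6, 36.3 and 18.6 CPM in the same order. PGM3 averaged 9.82, 13.8 and 10.6 CPM, a far smaller rise with doxorubicin than that of DUSP13. The number of genes above a correlation of 0.95 was 205 for OLR1, 115 for DUSP13, 89 for RAB3B, 77 for MLLT11, 26 for AHI1 and 10 for PENK.

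**Figure D5:**
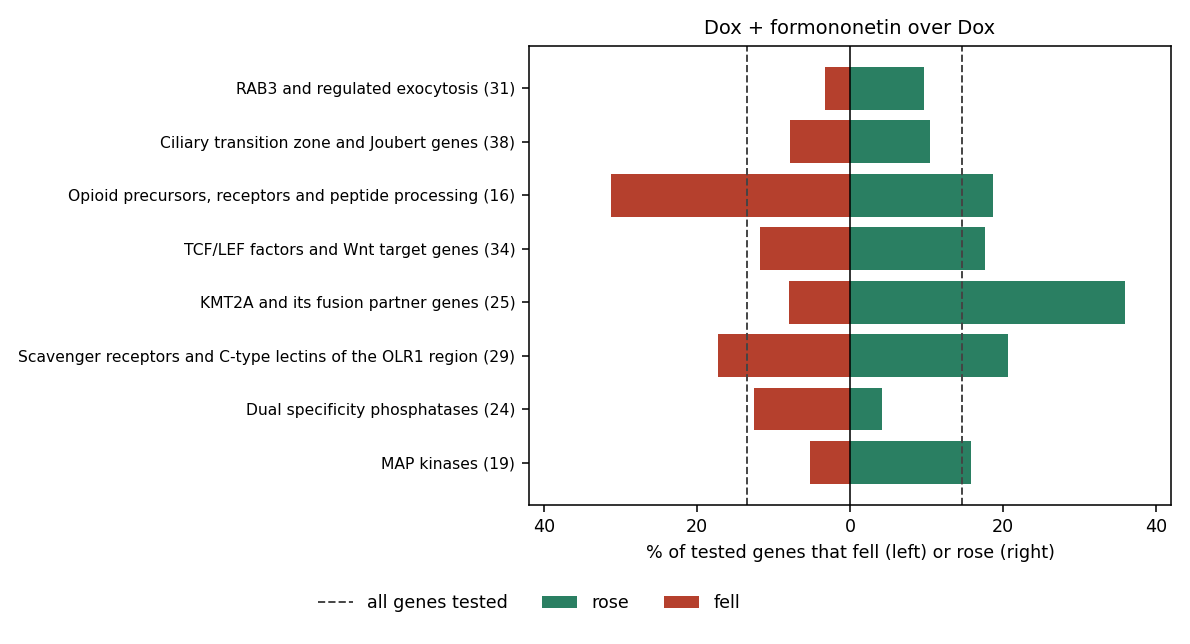
Percent of tested genes that rose (right, green) or fell (left, red) with doxorubicin plus formononetin over doxorubicin at an edgeR adjusted p under 0.05, for the 8 gene lists related to the 6 genes, with the number tested in brackets. Dashed lines mark all genes tested, 14.7% higher and 13.5% lower.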

How the data were processed

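The authors deposited 1 table of unnormalised whole-number read counts, a row per gene and a column per library, with a gene length in bases per the file headers. Per the labels' protocols, RNA was isolated with RNeasy columns and libraries were made with a SMARTER mRNA kit. The aligner, the counting program and its use of strand are not stated in the labels or headers used here. Of 30942 genes, 23009 had a count, and 30335 matched RefSeq (Sscrofa11.1) by gene ID, with equal symbol and start.

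Genes were kept with filterByExpr (minimum count 10), leaving 14846. All 9 libraries entered 1 negative binomial model with group as its factor in edgeR 4.0.16 (R 4.3.3, TMM scaling), and groups were compared by the quasi-likelihood F-test with Benjamini-Hochberg adjustment over all genes tested (threshold 0.05). SE is the absolute log2 fold change over the square root of F, and 95% intervals use the same SE and are not adjusted for many genes. A floor of 3 counts was used for a count of 0. The procedure was tested on simulated counts.

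The 6 genes and the 16 gene lists were chosen with earlier results of these data known. Beyond the 6, the text names, per list, up to 3 genes with the smallest p in each of 2 comparisons (doxorubicin against vehicle, and doxorubicin plus formononetin against doxorubicin), the flanking gene on each side, and the 3 genes most alike per member. Genes named to complete a count, and RAB3C, RAB3D, DPP3, NPEPPS, ANPEP and the opioid receptors and convertases, were named after their values were seen. Alternatives were another scaling, filter or test (DESeq2 1.42.0, limma-voom 3.58.1), fits of 2 groups, a replicate block and leaving out each library.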

Additional observations from a re-analysis of the deposited data

How the results depend on the processing

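None of the alternatives run reversed the direction of any of the 6 genes in any comparison. For doxorubicin against vehicle this says little, as the genes were chosen for being higher with doxorubicin in these libraries. The drop of RAB3B, OLR1, DUSP13 and MLLT11 with doxorubicin plus formononetin against doxorubicin, and the higher AHI1 against vehicle, passed under all 18. PENK lost its call against doxorubicin by limma-voom (-2.60), with the replicate block (-2.40, adjusted p = 0.0637) and without doxorubicin replicate 3, and ranged from -3.41 to -1.45 when 1 library was left out. The cause was not tested. RAB3B against vehicle was at 3.48 by limma-voom, ranged from 3.08 to 3.99 with 1 library left out, and was not tested with only those 2 groups in the fit, where it failed the filter. So 1 gene in place of 2 was called against vehicle by limma-voom and in the fit of 2 groups, and 1 to 2 with 1 library left out.

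The number of genes called with doxorubicin plus formononetin against vehicle was 262. It was 748 by DESeq2, 488 with no filter, 118 with only 2 groups in the fit, 124 with the replicate block, and 64 to 465 with 1 library left out. The lowest came without vehicle replicate 3 and the highest without doxorubicin plus formononetin replicate 3. Replicate numbers did not pair the samples: same-numbered libraries deviated from their group means with correlations from -0.20 to 0.03, and libraries correlated best with their own number in 2 of 18 cases. PENK, RAB3B and DUSP13 had at most 83 counts per library outside the doxorubicin group, which limits the precision of their comparison with vehicle.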

Other observations

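MAP kinases are substrates of many dual specificity phosphatases. Of 19 tested MAP kinases and their upstream activators, MAPK3, MAPK12 and MAP2K7 rose and MAP3K7 fell with doxorubicin plus formononetin against doxorubicin. With doxorubicin against vehicle 4 of the 19 rose and 4 fell. Among all genes tested, 14.7% rose and 13.5% fell with formononetin added, and 16.3% rose and 17.0% fell with doxorubicin against vehicle. MAPK12, the muscle form of the p38 family, averaged 245 ± 20.9 CPM with doxorubicin plus formononetin, 141 ± 7.93 CPM with doxorubicin and 221 ± 23.3 CPM with vehicle (SD, n = 3 each).

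Fibroblast markers, 18 of 18 tested, included 6 that rose and 2 that fell (FAP and POSTN) with formononetin added to doxorubicin. With doxorubicin against vehicle 3 of these markers rose and 6 fell. Among all genes tested, 14.7% rose and 13.5% fell with formononetin added, and 16.3% rose and 17.0% fell with doxorubicin against vehicle. POSTN, the matrix protein periostin, averaged 26.2 ± 6.09 CPM with doxorubicin plus formononetin, 196 ± 53.7 CPM with doxorubicin and 24.1 ± 5.78 CPM with vehicle. Of 13 smooth muscle and pericyte markers 5 rose and the potassium channel subunit KCNJ8 fell with formononetin added, and MCAM rose and 5 fell with doxorubicin against vehicle. None of 15 tested lymphocyte markers was called with formononetin added by edgeR, DESeq2 or limma-voom (2 had an unadjusted edgeR p under 0.05), and PTPRC and JCHAIN rose with doxorubicin against vehicle. Of 17 heart muscle markers 8 rose and 2 fell with formononetin added, and 2 rose and 10 fell with doxorubicin against vehicle. The calcium release channel RYR2 averaged 2008 ± 305 CPM with doxorubicin plus formononetin, 666 ± 103 CPM with doxorubicin and 1696 ± 248 CPM with vehicle.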
